A study of Mus musculus with 12 samples.

Results

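The genes of the mitochondrial ribosomal proteins were followed in germ cells and somatic cells of the fetal mouse ovary, with and without the glucocorticoid dexamethasone (dex). The members were all protein-coding genes of the deposited count table whose symbol begins with Mrpl or Mrps and a number, a rule that used no measured value. It took 78 of the 54532 genes in the table. By the known place of each protein, 51 belonged to the large subunit and 26 to the small subunit, and Mrps36 was counted apart because its product is now known as a subunit of the 2-oxoglutarate dehydrogenase complex.

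The mitochondrial ribosome translates the few messages that mitochondrial DNA encodes, all of which give inner membrane subunits of the respiratory chain and ATP synthase. Its ribosomal RNAs come from mitochondrial DNA, whereas all of its proteins are encoded in the nucleus, made in the cytosol and imported. Many of the proteins have a counterpart in the bacterial ribosome and sit around the shared RNA core, and the rest were gained in the mitochondrial lineage and sit mostly on the surface. Large subunit members were classed here by name: Mrpl numbers up to 36 as having a bacterial counterpart, higher numbers as mitochondria-specific. Mrps30 and Mrps18a were put with the latter, and small subunit members were classed by a fixed list. Single large subunit proteins were not checked, so a class may hold some of the other kind.

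The libraries were bulk, poly-A selected RNA-seq of female embryos at E15.5 (embryonic day) that carried the Tg(Pou5f1-EGFP)2Mnn reporter, in which Pou5f1 (OCT4) regulatory sequence drives GFP. Dams had been injected with 10 µg dex per g of body weight, or the same volume of saline, on 4 days from E12.5 to E15.5, and fetal ovaries were sorted by GFP into positive cells, the germ cells, and negative cells, the soma. This gave 4 groups of 3 libraries: saline germ cells, dex germ cells, saline somatic cells and dex somatic cells. All groups came from reporter embryos, the somatic gate held every GFP-negative ovarian cell type, and each library pooled ovaries from at least 2 litters.

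The 12 libraries held between 14658503 and 18245507 counts, and 3 counts, taken as the floor of detection, were worth 0.164 to 0.205 CPM (counts relative to library size) on the unscaled library totals. The levels given from here on are CPM scaled by TMM. The summed level of 5 germ cell markers (Pou5f1, Ddx4, Dazl, Dppa3, Sycp3) was 1990 to 2360 CPM in germ libraries and 2.58 to 18.6 CPM in somatic ones. The sum of 4 stromal markers was 57.2 to 119 CPM in germ libraries and 12800 to 16700 CPM in somatic ones, so both sorts held the labelled cells. Of 4 known glucocorticoid targets, Per1 rose with dex by 1.91 on the log2 scale in germ cells (adjusted p = 0.000906, edgeR). In somatic cells Per1 rose by 1.68 (adjusted p = 2.24e-07). Zbtb16 also rose in both, by 2.96 in germ cells (adjusted p = 0.0249) and by 6.94 in somatic cells (adjusted p = 4.33e-09). Fkbp5 (0.33, adjusted p = 0.162) and Tsc22d3 (-0.04, adjusted p = 0.866) did not pass the test in germ cells. In somatic cells Fkbp5 rose by 1.29 (adjusted p = 2.61e-07) and Tsc22d3 by 1.08 (adjusted p = 6.2e-07).

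The members were expressed as a group in every library. They took 0.338% ± 0.0191 (SD, n = 3) of all gene counts in saline germ cells, 0.329% ± 0.0144 in dex germ cells, 0.208% ± 0.00332 in saline somatic cells and 0.212% ± 0.00465 in dex somatic cells. The lowest germ library, at 0.3158%, stood above the highest somatic library, at 0.2175%, whereas the dex and saline libraries overlapped within each cell type. Within a group, the median coefficient of variation of a member over its 3 libraries lay between 7.4% and 9.0%. In bulk samples such as these, fewer cells of a type and less RNA per cell cannot be told apart.

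**Figure D1:**
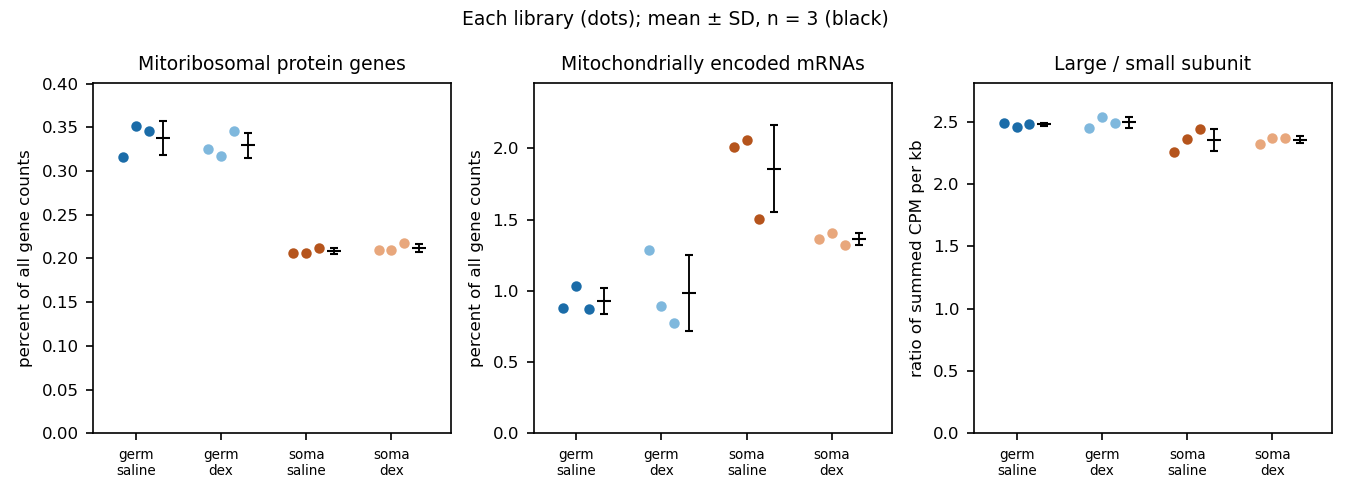
Share of all gene counts held by the 78 mitoribosomal protein genes (left), share held by the mRNAs of mitochondrial DNA (middle) and ratio of large to small subunit genes in summed CPM per kb (right), for each of the 12 libraries. Dots are libraries and black marks are mean ± SD of 3. Germ libraries lie at 0.3158% to 0.3516% for the members and somatic libraries at 0.2058% to 0.2175%, and the mitochondrial mRNAs show the opposite order.

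Of the 78 members, 77 passed the low-count filter in each comparison. Mrpl53, a large subunit protein gene of the mitochondria-specific class, had 0 counts in all 12 libraries, and its annotated exons overlap the antisense gene Ccdc142os and the sense gene Gm42688. Its lack of counts cannot be told apart from a counting rule that sets aside reads shared by overlapping genes. Exons of 33 members overlap another annotated gene, 28 of them on the opposite strand, and whether counting used strand is not given in the sources used here, so levels of these members may hold reads of their partners.

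Per kb of exon, the levels of the members covered a wide range. In saline germ cells the median was 15.8 CPM per kb and the highest were Mrpl2, a core protein near the peptidyl transferase centre, at 51.7 ± 4.42 CPM per kb (SD, n = 3), and Mrpl43 at 51.5 ± 1.62. Mrpl20 (38.9 ± 9.34 CPM per kb) and Mrpl44 (38.9 ± 3.73) followed, and neither the first pair nor the second differed beyond its spread. The lowest of the tested members were Mrps34 at 2.40 ± 0.509 CPM per kb, Mrps25 at 3.09 ± 0.188, Mrpl23 at 3.65 ± 0.462 and Mrpl32 at 3.81 ± 0.496. Neighbours among these 4 had overlapping ranges of mean ± SD.

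In saline somatic cells the median was 10.8 CPM per kb, and the order differed. The highest there were Mrpl34 at 39.5 ± 2.70 CPM per kb, Mrps21 at 31.3 ± 4.27, Mrpl52 at 30.0 ± 0.127 and Mrpl28 at 29.8 ± 2.70, of which the last 3 did not differ beyond their spread. The lowest were Mrps10 at 2.32 ± 0.196 CPM per kb, Mrpl47 at 2.87 ± 0.442, Mrps18b at 3.20 ± 0.0749 and Mrpl15 at 3.24 ± 0.154, again with overlapping ranges between neighbours. Over the 77 tested members the rank correlation of the levels per kb between saline germ and saline somatic cells was 0.621, given as a description over genes that share their libraries and lengths. Annotated exon length ran from 607 to 8631 nt with a median of 2213.5 nt, far more than the coding length (261 to 1326 nt, median 582 nt), and members with longer annotated exons had lower levels per kb (rank correlation -0.503 in saline germ cells and -0.77 in saline somatic cells). Part of the order of levels thus moves with the length to which counts were scaled.

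The main difference among the members was between the cell types. In saline, 52 of the 77 tested members were higher in germ cells, 11 were lower and 14 did not pass the test ("called" means a Benjamini-Hochberg adjusted p of at most 0.05 over all genes in edgeR's quasi-likelihood test). The median member was 0.71 higher on the log2 scale, against 0.005 for all genes tested. Most genes differed between these populations: 86.1% of 17941 tested genes were called, 43.1% higher and 42.9% lower in germ cells, so a call alone says little about a member. The members split 52 to 11 by direction where all genes split nearly evenly. All 3 germ libraries stood above all 3 somatic ones in CPM for 52 members (43.6% of all genes tested), and below them for 13 (43.6% of all genes tested).

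Among the called members, 24 were at least 2-fold higher and 5 at least 2-fold lower in germ cells. Differences of 2-fold were common over all genes tested, whose log2 quartiles were -1.917 and 1.372, against 0.035 and 1.106 for the members. The count of 2-fold higher members thus does not by itself set them apart. The dex libraries, which the saline comparison did not use, gave 49 members higher and 13 lower in germ cells with a median of 0.54 (all genes tested, 84.3% called, 42% higher and 42.2% lower). Of the 52 members higher in saline germ cells 48 were also called higher among the dex libraries, 10 of the 11 lower ones were also called lower, and 0 were called in opposite directions. By class, in the order in which the classes are described next, the medians among the dex libraries were 0.33, 0.76, 0.54 and 0.37. Of the 45 members whose exons overlap no other gene, 30 were higher and 8 lower in saline germ cells.

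**Figure D2:**
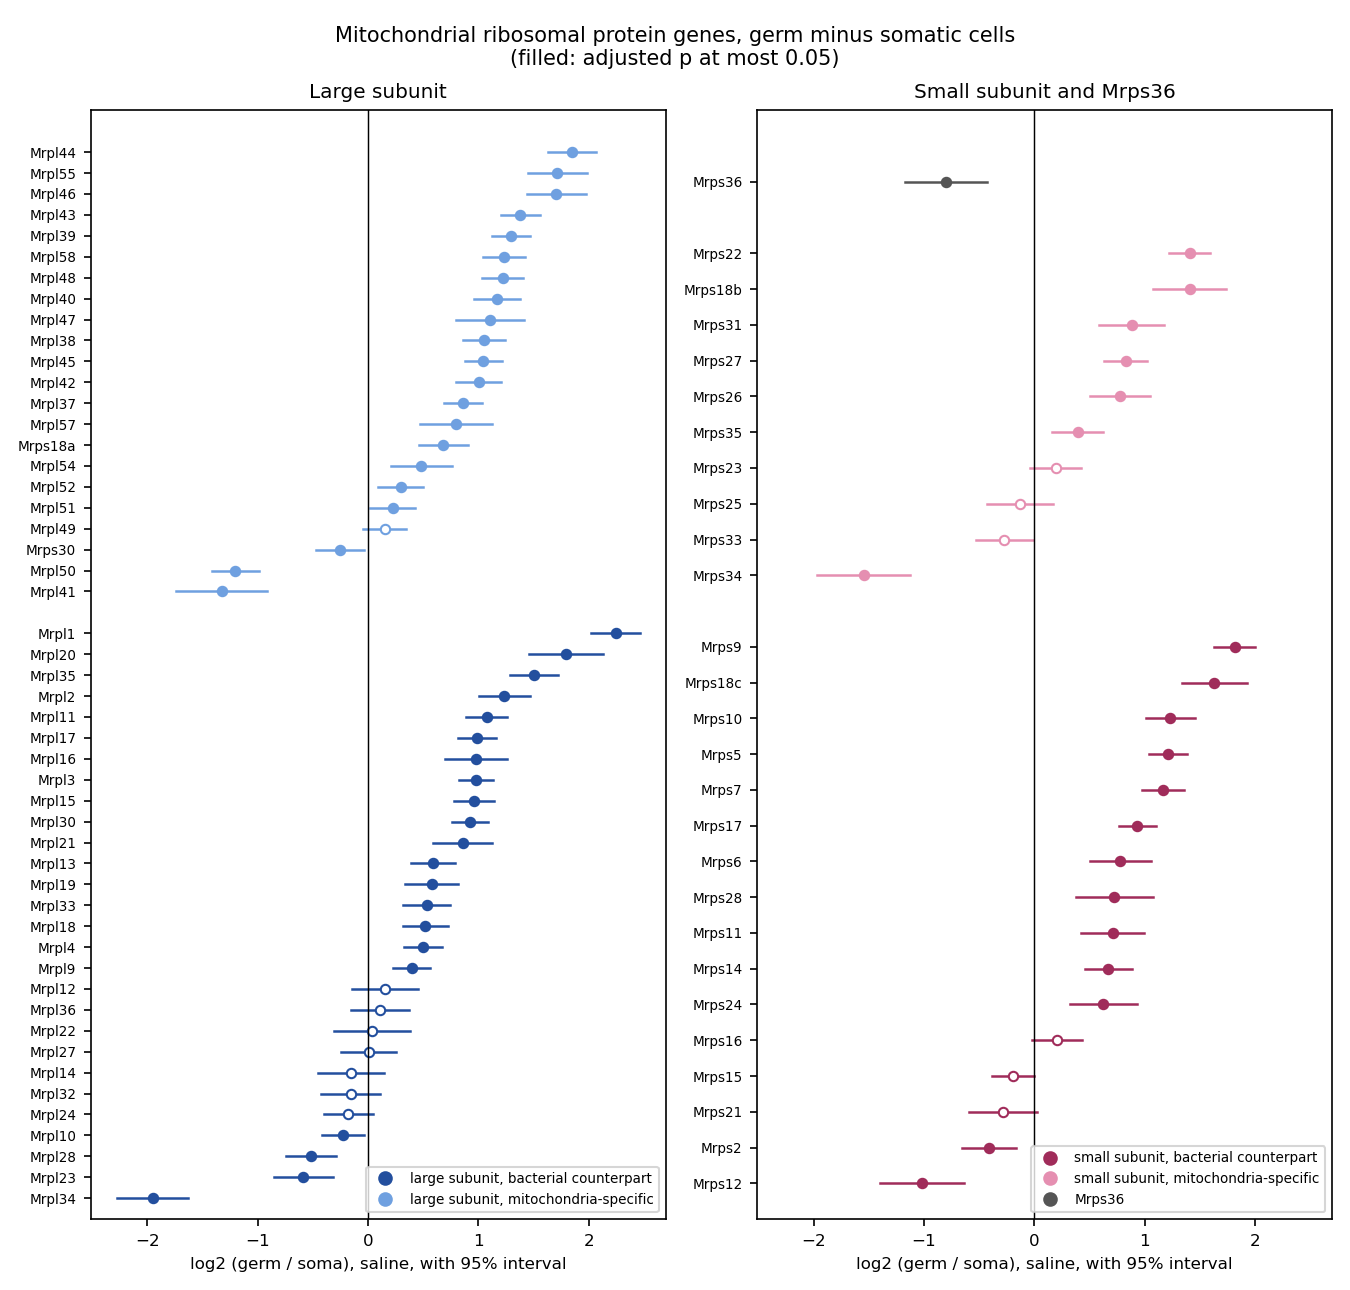
Difference between saline germ cells and saline somatic cells (log2, x axis) for the 77 tested members, one row per gene, in the large subunit (left) and the small subunit with Mrps36 (right). Points are the edgeR estimates, lines their 95% intervals, and filled points passed the test. Colours separate members classed as having a bacterial counterpart from those classed as mitochondria-specific (in the large subunit, by number). Most points lie right of 0, up to Mrpl1 at 2.24, and a few lie far left, down to Mrpl34 at -1.95.

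Among the 28 large subunit members classed by number as having a bacterial counterpart, 17 were higher in germ cells, 4 lower and 7 not called. Their median was 0.52. Mrpl1, the protein of the mobile stalk past which spent tRNA leaves, had the largest difference of all members. It was counted at 87.4, 91.0 and 101 CPM in the saline germ libraries and at 22.6, 17.4 and 19.5 CPM in the saline somatic ones, so the groups stood well apart. The log2 difference was 2.24 with a standard error (SE) of 0.10 (adjusted p = 2.01e-11), or 4.73-fold, and 3.51-fold among the dex libraries. Mrpl20, whose bacterial counterpart is needed early in assembly of the large subunit, was at 48.1, 78.9 and 67.2 CPM in saline germ cells against 19.1, 16.4 and 21.1 CPM in saline somatic cells. Its germ libraries spread widely but all lay above the somatic ones (log2 difference 1.79, SE 0.16, adjusted p = 4.3e-08).

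The genes for the stalk that recruits translation factors differed among themselves. Mrpl11, at its base, was higher in germ cells (61.7 ± 2.40 against 29.5 ± 1.82 CPM, log2 difference 1.07, adjusted p = 1.56e-08). Mrpl10, the arm that holds the stalk, was slightly lower (34.7 ± 1.06 against 40.9 ± 2.34 CPM, -0.22, adjusted p = 0.028). Mrpl12, the stalk protein, which also binds the mitochondrial RNA polymerase, was at 19.7 ± 2.13 and 17.8 ± 2.55 CPM and did not pass (0.16, 95% interval -0.15 to 0.46).

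Mrpl34, one of the smallest proteins of the large subunit, was the member with the largest difference in the other direction. It lay at 7.30, 5.30 and 5.89 CPM in the saline germ libraries and at 23.3, 22.8 and 25.8 CPM in the saline somatic ones. The somatic libraries were thus all above the germ ones, by 3.87-fold (log2 difference -1.95, SE 0.15, adjusted p = 1.07e-08). Per kb it ranked first among the members in somatic cells at 39.5 CPM per kb, and in germ cells it was at 10.2 ± 1.69 CPM per kb, below the median member. Mrpl23 (-0.59) and Mrpl28 (-0.52) were the other called members of this class that were lower in germ cells, beside Mrpl10.

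The 23 large subunit members classed as mitochondria-specific, mostly by number, showed the highest median difference of these classes, 1.02 over the 22 tested. Of these 18 were higher, 3 lower and Mrpl49 not called. Mrpl44, which carries a ribonuclease III-like fold, was at 57.1, 69.0 and 65.6 CPM in saline germ cells against 17.3, 17.4 and 18.9 CPM in saline somatic cells (log2 difference 1.85, SE 0.10, adjusted p = 1.55e-10). Mrpl55 (33.7 ± 0.688 against 10.3 ± 1.28 CPM, log2 difference 1.72) and Mrpl46 (41.8 ± 3.54 against 12.9 ± 1.85 CPM, 1.71) followed. Exons of Mrpl46 overlap those of Mrps11 on the opposite strand, which was itself higher in germ cells (0.71), and exons of Mrpl44 overlap those of Wdfy1 (1.08). Mrpl58, a peptidyl-tRNA hydrolase that frees stalled ribosomes and is also an integral protein of the large subunit, was at 63.5 ± 5.21 against 27.3 ± 0.56 CPM (1.23, adjusted p = 5.46e-09).

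The 3 members of this class that were lower in germ cells were Mrpl41, Mrpl50 and Mrps30. Mrpl41, also known as a BCL2-binding protein, was at 4.26, 5.42 and 7.03 CPM in saline germ cells and 12.8, 14.4 and 15.2 CPM in saline somatic cells (log2 difference -1.33, SE 0.19, adjusted p = 1.31e-05). Mrpl50 was at 19.2, 19.1 and 18.6 CPM against 45.4, 40.2 and 46.2 CPM, with germ replicates close together and all below the somatic ones (-1.20, SE 0.10, adjusted p = 2.24e-08). Mrps30, a large subunit protein in spite of its name, was at 27.4 ± 2.46 against 32.9 ± 1.72 CPM, a small difference (-0.25, adjusted p = 0.0315).

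In the small subunit the 16 members with a bacterial counterpart gave 11 higher, 2 lower and 3 not called, with a median of 0.72. Mrps9, a protein of the subunit's head, was among the most abundant members by CPM, at 118, 142 and 135 CPM in saline germ cells against 35.9, 37.6 and 39.6 CPM in saline somatic cells (log2 difference 1.82, SE 0.09, adjusted p = 3.4e-11). Mrps7, which nucleates assembly of the head in bacteria, was at 80.1 ± 7.87 against 36 ± 1.73 CPM (1.17, adjusted p = 1.08e-08). Mrps12, the decoding centre protein in which streptomycin resistance arises in bacteria, went the other way. It was at 9.05, 7.81 and 12.6 CPM in saline germ cells and 19.6, 17.7 and 22.9 CPM in saline somatic cells (-1.02, SE 0.18, adjusted p = 7.85e-05), and Mrps2 was the other lower one (-0.41).

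The 10 mitochondria-specific members of the small subunit gave 6 higher, 1 lower and 3 not called, with a median of 0.58. Mrps27, a pentatricopeptide repeat protein, was at 52.5 ± 1.58 against 29.8 ± 2.60 CPM (0.83, adjusted p = 6.89e-07). Mrps34, whose loss destabilises the small subunit, was at 4.07, 6.12 and 4.69 CPM in saline germ cells against 12.2, 14.5 and 17.2 CPM in saline somatic cells, without overlap (-1.55, SE 0.20, adjusted p = 3.42e-06). Its exons overlap Mapk8ip3 on the opposite strand and Nme3 on the same strand, and Mapk8ip3 differed the other way (0.50).

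The paralogs Mrps18a, Mrps18b and Mrps18c occupy different places, Mrps18a in the large subunit and the others in the small. All were higher in saline germ cells: Mrps18a at 37.7 ± 3.60 against 23.7 ± 1.08 CPM (0.68, adjusted p = 2.12e-05), Mrps18b at 17.6 ± 2.13 against 6.68 ± 0.157 CPM (1.41, adjusted p = 6.16e-07) and Mrps18c at 36 ± 4.41 against 11.7 ± 1.61 CPM (1.63, adjusted p = 3.05e-08). Mrps36, the dehydrogenase subunit, was at 6.14, 5.60 and 5.14 CPM in saline germ cells against 9.63, 9.61 and 10.3 CPM in saline somatic cells (-0.80, SE 0.17, adjusted p = 0.000548). Among the dex libraries the groups overlapped for Mrps36 and it did not pass (-0.51, adjusted p = 0.0645).

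**Figure D3:**
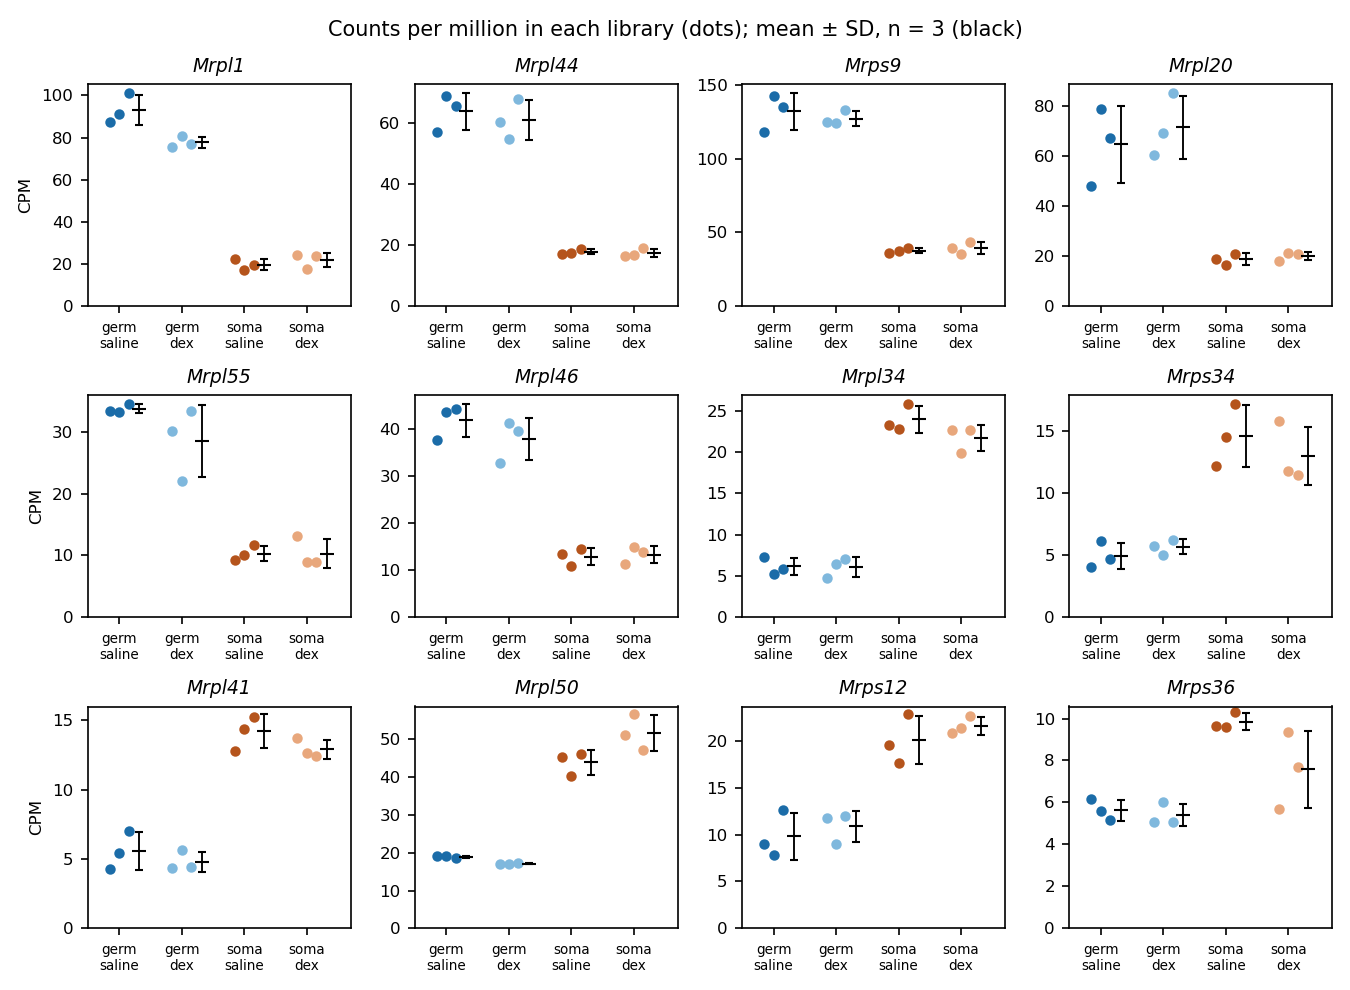
CPM of the 6 members with the largest positive and the 6 with the largest negative difference between saline germ and somatic cells, in all 12 libraries. Dots are libraries and black marks are mean ± SD of 3. In each panel the saline germ and saline somatic libraries do not overlap, and the dex libraries stay on the side of their cell type except for Mrps36, whose dex groups overlap.

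The subunits kept nearly the same proportion in both cell types. The summed level of large subunit members was 983 ± 56.2 CPM per kb in saline germ cells and 652 ± 23.9 in saline somatic cells (SD, n = 3), and that of small subunit members 397 ± 25.2 and 277 ± 7.21. Their ratio was 2.46, 2.48 and 2.49 over the saline germ libraries and 2.26, 2.36 and 2.44 over the saline somatic ones. The germ libraries lay above the somatic ones by a small step, and with dex the ratio was 2.49 ± 0.0451 in germ cells and 2.35 ± 0.0289 in somatic cells.

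The RNAs of mitochondrial DNA, among them the mRNAs that the ribosome translates, went the other way. All 14 tested transcripts of mitochondrial DNA (12 mRNAs and 2 rRNAs) were lower in saline germ cells, with a median log2 difference of -1.275, from mt-Co1, a catalytic subunit of cytochrome oxidase, at -0.53 to the small ribosomal RNA mt-Rnr1 at -4.38. Mitochondrial mRNAs made up 0.882%, 1.036% and 0.874% of counts in the saline germ libraries and 2.01%, 2.055% and 1.504% in the saline somatic ones. For each count of a member there were 2.76 ± 0.212 counts of mitochondrial mRNA in saline germ cells and 8.94 ± 1.59 in saline somatic cells. Poly-A selection captures mitochondrial rRNA poorly, so levels of mt-Rnr1 and mt-Rnr2 depend on the library preparation.

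Other nuclear genes of mitochondrial gene expression leaned the same way as the members. Of 20 mitochondrial aminoacyl-tRNA synthetase and amidotransferase genes, 15 were higher and 5 lower in saline germ cells (median 1.07), led by Gatb (2.65) and the methionyl enzyme Mars2 (2.58), with the alanyl enzyme Aars2 (-1.87) lowest. Of 16 translation factor genes, 12 were higher and 2 lower (median 0.82), among them Taco1 (2.05), an activator of translation of the mt-Co1 message, and Lrpprc (1.97), which stabilises mitochondrial mRNAs. Of 27 genes for assembly and rRNA modification, 19 were higher and 6 lower (median 0.74), from the rRNA methyltransferase Tfb1m (2.60) and the GTPase Noa1 (2.28) to Mettl17 (-3.16). Of 12 genes for transcription and replication of mitochondrial DNA, 8 were higher and 2 lower (median 0.80), including the RNA polymerase Polrmt (1.83).

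Lists of nuclear genes outside mitochondrial gene expression showed other medians over the same libraries. Of 84 tested nuclear genes for oxidative phosphorylation subunits, 42 were higher and 21 lower in saline germ cells, with a median of 0.19. Of 76 cytosolic ribosomal protein genes, 15 were higher and 36 lower, with a median of -0.19, so the members and their cytosolic counterparts had medians of opposite sign. Many cytosolic ribosomal protein genes have processed pseudogenes that can share reads, whereas the 5 named pseudogenes of the members stayed below 1 CPM in every library except Mrpl48-ps, which reached 10.8 CPM.

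**Figure D4:**
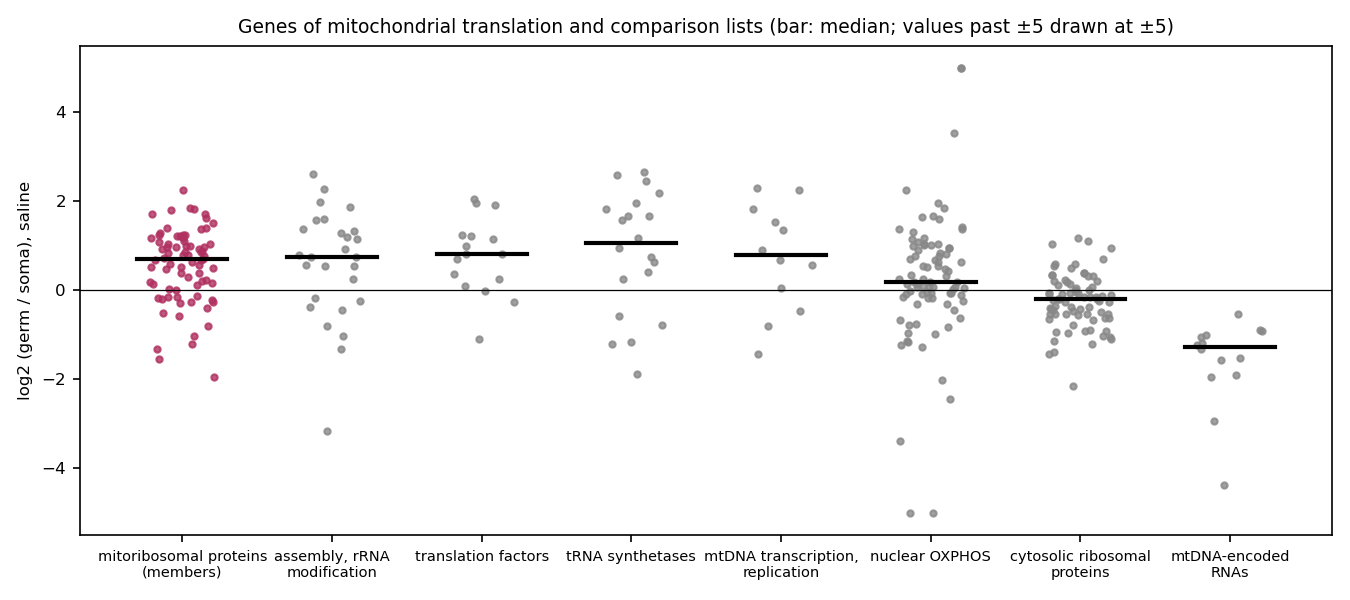
Difference between saline germ and somatic cells (log2, y axis) for each tested gene of the mitoribosomal proteins (red) and of 7 comparison lists (grey), with the list median as a bar. The members have a median of 0.71, the cytosolic ribosomal proteins of -0.19, and the transcripts of mitochondrial DNA lie below 0 throughout. Values past ±5 are drawn at ±5.

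The promoters of the members were also searched for short motifs, as a description without a test. RefSeq (GRCm38.p6) gave 75 windows, each from 250 nt before to 50 nt after a transcription start, for 69 of the 78 members. The letters CCGGAAG, the core bound by ETS factors such as GABPA, were found on either strand in 34.7% of the member windows, 11.9% of those of protein-coding genes and 8.9% of all 32851 windows. GCGCNTGCG, the core of the NRF1 site, was in 24.0%, 8.9% and 6.3%, and AANATGGCG, the core of the YY1 site, in 14.7%, 3.3% and 2.4%. At least 1 of these 3 was present in 58.7% of member windows and 21.1% of coding windows, while the median GC content was 58.7% and 57.0%. The glucocorticoid receptor core ACANNNTGT was in 4.0% of member windows, 5.8% of coding windows and 6.8% of all windows, and the TATA box letters TATAAA in 6.7%, 12.1% and 13.6%.

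The share did not separate members by direction clearly, given the few that were lower: CCGGAAG was in 17 of 49 windows of members higher in saline germ cells and in 2 of 10 windows of members lower there, and GCGCNTGCG in 12 of 49 and 1 of 10. Of the factors themselves, Nrf1 (0.74), Gabpa (0.64) and Gabpb1 (0.99) were higher in saline germ cells and Yy1 was lower (-0.31). The coactivator genes Ppargc1a (-4.25) and Ppargc1b (-4.71) were much lower. They belong to a list of 9 regulators of mitochondrial genes, of which 4 were called higher and 4 lower in saline germ cells. The list ran from -6.33, for a gene not named here, to 0.99. Its median of -0.31 became 0.17 among the dex libraries, and 0.02 in saline once a trend with gene length was removed. The windows of the 2 members with the largest differences in each direction are shown, with the matches of any of the 5 searched motifs in capitals. Matches of different motifs did not overlap in the printed windows. They are Mrpl1 (chr5:96209865-96210164, plus strand), Mrpl44 (chr1:79775768-79776067, plus strand), Mrpl34 (chr8:71464676-71464975, plus strand) and Mrpl41 (chr2:24975049-24975348, minus strand), the next in order after Mrps34, which had no window in the table.
Mrpl1: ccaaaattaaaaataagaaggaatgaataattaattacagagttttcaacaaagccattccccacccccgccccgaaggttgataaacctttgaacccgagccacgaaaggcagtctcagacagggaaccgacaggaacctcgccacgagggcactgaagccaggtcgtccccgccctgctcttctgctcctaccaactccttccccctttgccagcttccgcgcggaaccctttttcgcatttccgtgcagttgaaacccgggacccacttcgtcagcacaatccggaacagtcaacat
Mrpl44: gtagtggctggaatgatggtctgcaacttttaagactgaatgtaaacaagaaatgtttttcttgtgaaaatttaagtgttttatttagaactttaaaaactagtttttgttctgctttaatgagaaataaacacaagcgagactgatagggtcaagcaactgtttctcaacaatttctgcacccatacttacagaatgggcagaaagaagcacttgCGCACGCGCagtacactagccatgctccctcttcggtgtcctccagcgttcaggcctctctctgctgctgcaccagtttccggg
Mrpl34: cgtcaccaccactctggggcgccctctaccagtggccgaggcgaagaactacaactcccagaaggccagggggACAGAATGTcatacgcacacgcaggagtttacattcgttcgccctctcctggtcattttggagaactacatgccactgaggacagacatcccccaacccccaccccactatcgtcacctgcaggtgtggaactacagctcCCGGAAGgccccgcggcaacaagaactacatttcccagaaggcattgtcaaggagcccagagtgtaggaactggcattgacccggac
Mrpl41: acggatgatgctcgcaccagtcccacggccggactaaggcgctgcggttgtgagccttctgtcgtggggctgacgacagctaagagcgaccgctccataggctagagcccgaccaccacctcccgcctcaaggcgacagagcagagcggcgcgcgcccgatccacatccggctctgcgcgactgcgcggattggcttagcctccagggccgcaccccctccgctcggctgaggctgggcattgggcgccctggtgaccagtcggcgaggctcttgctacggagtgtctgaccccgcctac

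The windows of Mrpl1 and Mrpl41 held none of these letters. That of Mrpl44 held the NRF1 letters on the minus strand of the gene, beginning 34 nt before the start. That of Mrpl34, higher in somatic cells, held CCGGAAG 37 nt before the start and the glucocorticoid receptor letters 177 nt before it. With dex, Mrpl34 was at 22.7, 19.9 and 22.7 CPM in somatic cells against 23.3, 22.8 and 25.8 CPM with saline, all below but close (log2 -0.15, 95% interval -0.38 to 0.08, adjusted p = 0.492).

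Dex left the members in germ cells without a call. Of 77 tested members 0 passed in either direction, where 0.208% of 16857 tested genes did (0.089% higher, 0.119% lower). An unadjusted p under 0.05 was found for 10 members (12.987%), 1 higher and 9 lower. Of all genes tested 11.645% had one, 963 higher and 1000 lower, so the share of members was near that of all genes. The estimates leaned slightly down: 54 were negative and 23 positive, with a median of -0.05 against 0.01 for all genes tested. The dex libraries lay all below the saline ones for 14 members (9.43% of all genes tested) and all above for 1 (7.93% of all genes tested). The 95% interval of the change lay within 2-fold either way for 77 of 77 members and within 1.5-fold for 71, so a change of 2-fold or more lay outside the interval of every tested member.

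The 4 members with the lowest unadjusted p in germ cells all had lower values with dex. Mrpl43, a mitochondria-specific large subunit protein, was at 63.8, 63.2 and 60.2 CPM with saline and between 48.5 and 52.3 CPM over the 3 dex libraries, without overlap (log2 -0.30, SE 0.07, adjusted p = 0.144). Mrpl33 was at 38.1, 37.5 and 40.3 CPM and then 31.1, 27.0 and 31.1 CPM (-0.37, SE 0.09, adjusted p = 0.165). Mrpl1 was at 87.4, 91.0 and 101 CPM and then 75.5, 80.7 and 77.2 CPM (-0.25, SE 0.07, adjusted p = 0.23). Mrps30 was at 29.6, 27.9 and 24.7 CPM and then 16.9, 20.7 and 22.6 CPM (-0.44, SE 0.13, adjusted p = 0.245). In each the replicate groups did not overlap, yet none passed over all genes in this fit. Without the low-count filter Mrpl43 (adjusted p = 0.0385), Mrpl33 (0.0464) and Mrps30 (0.0471) did pass.

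In somatic cells, where dex changed far more genes, the members again gave 0 calls of 77. All genes tested gave 8.18% of 16556, with 4.81% higher and 3.36% lower. Here the estimates leaned up: 52 were positive and 25 negative, with a median of 0.045 against 0.0 for all genes tested. All 8 members with an unadjusted p under 0.05 were higher. They were 10.39% of the members, a smaller share than the 20.856% of all genes tested (1808 higher and 1645 lower). The dex libraries lay all above the saline ones for 10 members (13.5% of all genes tested) and all below for 5 (11.9%), shares no larger than those of all genes. The interval lay within 2-fold for 77 of 77 members and within 1.5-fold for 75.

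The 4 members with the lowest unadjusted p in somatic cells belonged to the large subunit. Mrpl17, near the exit of the nascent chain, was at 52.0, 44.7 and 53.3 CPM with saline and 64.9, 59.2 and 57.7 CPM with dex (log2 0.27, SE 0.08, adjusted p = 0.0626). Mrpl45, which holds the ribosome to the inner membrane, was at 34.0, 33.6 and 35.6 CPM and then 37.1, 46.9 and 43.2 CPM (0.30, SE 0.10, adjusted p = 0.0899). Mrpl58 was at 26.7, 27.8 and 27.3 CPM and then 30.6, 39.2 and 32 CPM (0.32, SE 0.11, adjusted p = 0.11). Mrpl50 was at 45.4, 40.2 and 46.2 CPM and then 51.1, 56.7 and 47.2 CPM (0.23, SE 0.09, adjusted p = 0.157). Each stood above its saline libraries without overlap. Mrpl17 passed without the low-count filter (adjusted p = 0.0428) and without dex somatic replicate 3 (0.0302), as did Mrpl50 without that library (0.0433) and Mrpl45 without dex somatic replicate 1 (0.0271).

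Markers of other cell types differed with dex in the same somatic libraries. The 4 macrophage markers (Csf1r, Adgre1, Cd68, C1qa) summed to 94.4 to 122 CPM with saline and 26.9 to 62.5 CPM with dex, and 3 of the 4 were called lower. Perivascular Cspg4 (log2 1.06), stromal Pdgfra (0.62) and endothelial Emcn (0.43) were called higher, and endothelial Cdh5 (-0.50) lower. The other markers of these 3 cell types did not pass. The 4 erythroid markers, none called, summed to 7280 to 12300 CPM with saline and 3280 to 16300 CPM with dex. The 5 germ cell markers summed to 2.58 to 4.84 CPM with saline and 15 to 18.6 CPM with dex, mostly through Dazl (12.6 to 12.9 CPM with dex, log2 3.43, adjusted p = 2.92e-07). Ddx4 (adjusted p = 0.527) and Sycp3 (adjusted p = 0.311) did not pass, and Pou5f1 and Dppa3 were at 0 in the dex somatic libraries. The part of any of these marker lists in the values of the members was not tested.

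**Figure D5:**
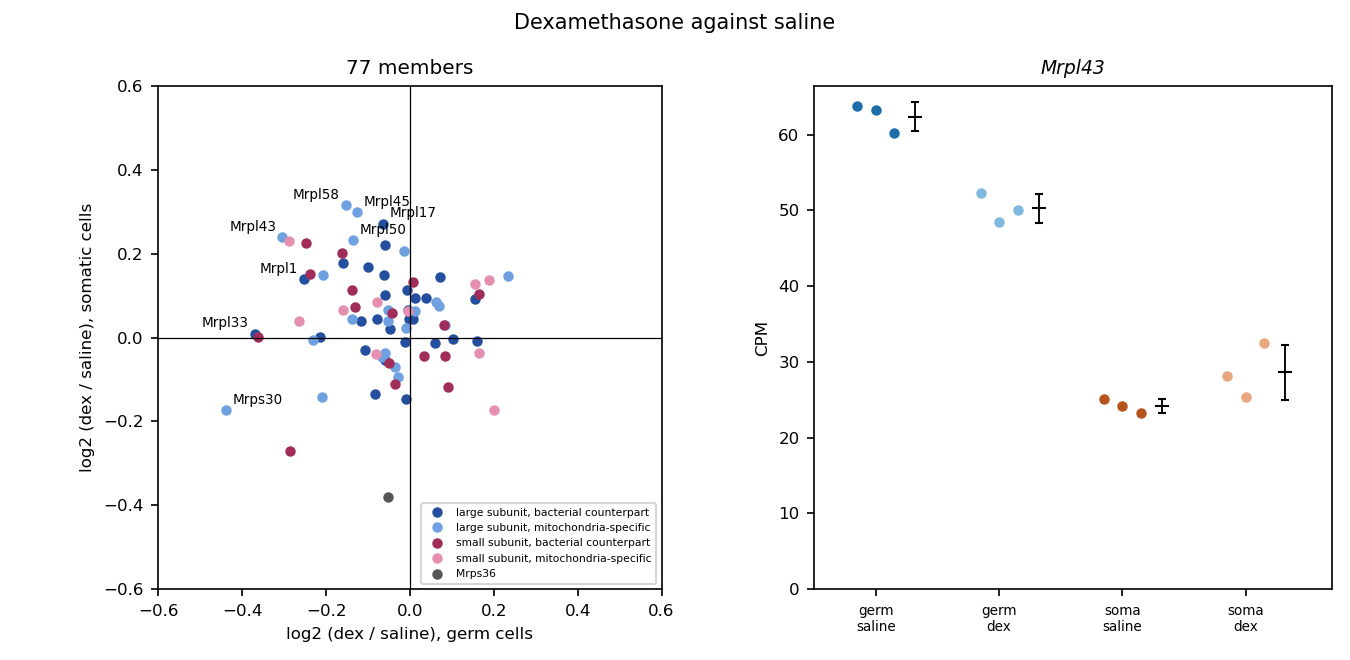
Left, log2 change with dex in germ cells (x axis) against that in somatic cells (y axis) for the 77 tested members, coloured by class, with the members of lowest p in either cell type named. Right, CPM of Mrpl43 in the 12 libraries, with mean ± SD of 3 in black. The largest group of points, 37 of 77, lies at the upper left, and Mrpl43 is lower with dex in germ cells and higher in somatic cells.

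The difference between both dex effects was called for 1 member of 77, Mrpl43 (all genes tested, 1.62% of 19390 called, 0.49% higher and 1.13% lower in germ cells than in somatic cells). Its somatic libraries were at 25.1, 24.2 and 23.2 CPM with saline and 28.1, 25.3 and 32.5 CPM with dex, a change of 0.24 on the log2 scale (adjusted p = 0.235) where germ cells had -0.30. The difference was -0.56 (SE 0.13, 95% interval -0.83 to -0.28, adjusted p = 0.0407). The call was close to the threshold: with each of the 12 libraries left out in turn it was kept only without dex germ replicate 1 or dex somatic replicate 2, and lost without any of the other 10 (adjusted p = 0.0699 to 0.13), while the estimate stayed between -0.62 and -0.44. It was also lost with upper-quartile scaling (-0.50, adjusted p = 0.0631).

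Mrpl43 (chromosome 19, 45005014 to 45006442, minus strand, GRCm38 as deposited) overlaps exons of Twnk, the mitochondrial DNA helicase, on the opposite strand. Twnk was called higher with dex in somatic cells (log2 0.35, adjusted p = 0.0245) and was at 0.25 in germ cells (adjusted p = 0.163), and the part of shared reads in the values of Mrpl43 was not tested. Its promoter window (chr19:45006393-45006692, minus strand), chosen for printing after its values were seen, held CCGGAAG 56 and 12 nt before the start and the NRF1 letters, on the minus strand of the gene, from 79 nt before it, and none of the glucocorticoid receptor letters.
Mrpl43: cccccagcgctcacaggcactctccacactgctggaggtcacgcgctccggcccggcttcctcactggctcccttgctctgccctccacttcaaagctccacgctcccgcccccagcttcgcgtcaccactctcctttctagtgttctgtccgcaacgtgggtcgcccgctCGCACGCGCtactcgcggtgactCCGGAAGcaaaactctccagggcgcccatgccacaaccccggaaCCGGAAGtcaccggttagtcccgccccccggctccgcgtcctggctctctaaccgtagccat

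Over all members, 37 had a negative estimate in germ cells and a positive one in somatic cells, 15 were positive in both, 17 negative in both and 8 positive only in germ cells. The median difference was -0.08, against 0.005 for all genes tested. An unadjusted p under 0.05 was found for 15 members (19.481%), all with the lower value in germ cells. Of all genes tested 15.425% had one, 1442 higher and 1549 lower in germ cells. By class the medians of the difference were -0.09 for both classes of the large subunit and -0.07 for both classes of the small subunit, close to one another.

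More genes of the cytosolic ribosome than of the mitochondrial ribosome were called with dex. The estimates of the cytosolic genes were also more precise. Their median SE was 0.069 in somatic cells, 0.082 in germ cells and 0.116 for the difference, against 0.106, 0.101 and 0.155 for the members. The part of this precision in the counts of calls was not tested. Of 76 cytosolic ribosomal protein genes, 21 rose and 0 fell in somatic cells (median 0.19), with Rpl37 at 0.39 and Rps6 at 0.27, and in germ cells 0 rose and 5 fell (median -0.10), with Rps27 at -0.92 and Rpl39 at -0.83. For the difference 16 of them were called, all lower in germ cells. These counts moved with the processing: the 21 became 13 with upper-quartile scaling and 35 in DESeq2, and the 5 became 3 with upper-quartile scaling, 11 in DESeq2 (where 1 rose) and 13 without the low-count filter (where 2 rose). The 16 became 12 with upper-quartile scaling, 26 in DESeq2 and 27 without the filter. Of the nuclear oxidative phosphorylation genes 5 rose in somatic cells, among them Ndufa6 (0.44), and 2 fell in germ cells, Cox6c (-0.45) and Ndufc1 (-0.51), of which neither passed with upper-quartile scaling. Of the transcripts of mitochondrial DNA 5 fell in somatic cells with dex, from mt-Co1 (-0.34) to mt-Nd5 (-0.49), and 0 of 13 tested passed in germ cells. Counts of mitochondrial mRNA per count of a member were 8.94 ± 1.59 with saline and 6.44 ± 0.335 with dex in somatic cells (SD, n = 3), without overlap, and 2.76 ± 0.212 and 3.00 ± 0.867 in germ cells, with overlap. Of the remaining lists for mitochondrial translation and genome maintenance, Twnk was the one gene called with dex in either cell type.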

How the data were processed

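Per the labels and the study's methods, the authors' provider aligned read pairs to mm10 with HISAT2 2.0.5 and counted fragments per gene with featureCounts 1.5.0-p3. The deposited counts (raw, unnormalized) were used for tests and levels, and the deposited FPKM only as an alternative scale. The authors' own DESeq2 tables (DESeq2 1.20.0, fold changes and adjusted p-values) were not used. The strand setting and the treatment of multi-mapped reads were not given in the sources used here. Counts were tested with edgeR 4.0.16 in R 4.3.3 (TMM, filterByExpr, quasi-likelihood test, two-sided), fitted on all genes, with Benjamini-Hochberg adjusted p at most 0.05. The test was run on simulated counts first. Dex was compared with saline within a cell type, germ with somatic cells within a treatment, and both dex effects in 1 fit of 12 libraries. Intervals are 95% intervals of the fit. Labels call replicates biological, and p-values measure the spread between these pooled samples. No batch was given.

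Members, comparison lists and markers were chosen with earlier results of these data known. Genes named were 14 members listed at the outset (among them the Mrps18 paralogs), the called members or the 4 of lowest p in each dex comparison, the 6 largest differences each way between saline germ and somatic cells with a mean of at least 1 CPM, the 4 highest and lowest levels per kb in each cell type, and members that failed the filter. Comparison genes were named as examples after their values were seen. Alternatives were RLE and upper-quartile scaling, no filter, DESeq2 1.42.0, a replicate block, removal of a length trend, and each library left out.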

Additional observations from a re-analysis of the deposited data

Results flagged for a closer look

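Mrpl43 was the one member whose response to dex differed between germ cells and somatic cells by a test of the difference itself, with a log2 difference of -0.556 (germ minus somatic, edgeR, adjusted p = 0.0407). It was lower with dex in 3 of 3 germ libraries and higher in 3 of 3 somatic libraries than every saline library of the same cell type. The call was lost without any 1 of 10 of the 12 libraries (adjusted p = 0.0699 to 0.13), and was kept without dex germ replicate 1 or dex somatic replicate 2. Groups of 3 were too small for a check of single libraries that stand apart.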

How the results depend on the processing

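The median member kept its sign in each comparison under all alternatives run: -0.123 to -0.028 for dex in germ cells, 0.018 to 0.068 for dex in somatic cells, -0.153 to -0.025 for their difference, 0.633 to 0.873 for germ against somatic cells in saline and 0.469 to 0.681 with dex. Beyond the spread between libraries, the saline median moved to 0.637 with upper-quartile scaling, 0.873 without the length trend and 0.872 with the replicate block as well, and to 0.633 to 0.778 with single libraries left out. The dex median moved to 0.615 (RLE), 0.619 (DESeq2), 0.681 (length trend removed) and 0.68 (with the replicate block as well). Removing the length trend moved the median of all genes to 0.179 in saline and 0.147 with dex, as did the wider gene set without a filter (0.142 and 0.268) and in DESeq2 (0.21 and 0.319). For dex in germ cells, 3 members were called without the filter, 0 under the others, and the median ran from -0.123 to -0.028 with single libraries left out, lowest without dex germ replicate 3. For dex in somatic cells, 1 was called without the filter, 1 with the replicate block (Mrpl17, adjusted p = 0.0446), 1 with length trend and block (Mrpl17, 0.0374), and 0 to 2 with single libraries left out. For the difference, 4 were called by DESeq2 (Mrpl43, Mrpl45, Mrps17, Mrps35), 2 without the length trend with or without the block (Mrpl43, Mrpl45), 0 with upper-quartile scaling, and 0 to 1 with single libraries left out. Among members without exon overlap, an alternative chosen after seeing the data, 38 were called in saline and 37 with dex. Over all genes, calls for dex in germ cells rose from 35 to 158 (DESeq2), 420 (no filter), 59 (length trend removed) and 113 (with the block as well), and for the difference from 314 to 622 and 727 with the first 2 of these. With single libraries left out they ran from 17 to 81 for dex in germ cells, 754 to 1881 in somatic cells (1354 with all) and 143 to 384 for the difference.

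Same-numbered dex and saline libraries did not deviate together in every pair (correlations 0.132, 0.008 and 0.039 in germ cells, 0.048, -0.01 and 0.027 in somatic cells), so the numbers were not taken as pairs. Germ and somatic libraries of a treatment each correlated best with their own number (0.054 to 0.099), a hint from the data and not the design. The replicate block otherwise changed no count of members past 1.5 times. Depth limits the members little, since each tested member was above the floor of 3 counts in its groups.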

Other observations

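Mitoribosomal protein genes often lie back to back with another gene. In GENCODE M21, 17 of the 78 members (21.8%) had a protein-coding gene starting on the opposite strand up to 500 nt upstream of their own start. Among all 21951 protein-coding genes 1353 (6.2%) did. Pairs whose 5' ends overlap were not counted. Of the 17 neighbours counted, 14 were called between saline germ and somatic cells, 9 of them higher in germ cells. Of all genes tested 86.1% were called, 43.1% higher in germ cells. The sign was the same in 10 of 17 pairs, close to an even split. Mrps18c (1.63) and the DNA helicase gene Helq (1.89) were both higher in germ cells, as were Mrps27 (0.83) and Ptcd2 (1.48). Mrps12 (-1.02) and Sars2 (-0.79), the mitochondrial seryl-tRNA synthetase, were both lower, whereas Mrpl51 (0.22) and the condensin gene Ncapd2 (-1.12) differed in sign. These pairs were picked as examples after their values were seen.

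The 5 mitoribosomal protein genes that carry other names were also measured in saline. Dap3 (log2 germ against somatic 0.91), Ptcd3 (0.98) and Aurkaip1 (0.38) were called higher in germ cells, Gadd45gip1 was called lower (-1.17), and Chchd1 was at 0.09 (adjusted p = 0.529, edgeR). None of the 5 was called with dex in either cell type.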
